A study of Homo sapiens with 11 samples.

Results

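OSK expression was compared with Oct4 expression alone in ARPE-19, an established human cell line of retinal pigment epithelium (RPE), the pigmented cell layer behind the photoreceptors. OSK stands for the combination of Oct4, Sox2 and Klf4, so the comparison asks what Sox2 and Klf4 add to, or remove from, the state of cells that carry Oct4. The 2 libraries labelled OSK were set against the 2 labelled Oct4, out of 11 libraries in the series, over 18828 of the 60605 listed features, namely those with a value of 10 or more in at least 2 libraries. The other lines were read beside them: GFP (green fluorescent protein, the control; 3 libraries), Sox2 (2) and Klf4 (2). All lines were stable ARPE-19 lines that expressed the open reading frame (ORF) for 4 days, and polyadenylated RNA was sequenced. The labels do not give the species of the ORFs, the number of clones, the order in which the factors were delivered or whether libraries of a line came from separate cultures. The p-values therefore measure the spread between these libraries, which may be technical. With 2 libraries per line, both values are given in place of a mean, as normalised counts (reads per gene over a library-specific factor, as deposited). In bulk RNA, a change in the share of cells of a kind and a change in RNA per cell cannot be told apart.

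Oct4 (gene POU5F1) is a POU-domain factor that binds the octamer sequence, Sox2 is a high-mobility-group factor that often binds next to Oct4 at composite sites, and Klf4 is a zinc-finger factor that binds GC-rich and CACC-type sequences. Together they are the core of the reprogramming mixture that can return somatic cells to pluripotency. Each can also switch on programmes of its own: Klf4 is best known in epidermis and other barrier epithelia, and Sox2 in neural and retinal progenitors. In culture, RPE cells can lose pigment and take on a contractile, matrix-producing state driven by TGF-beta, serum response factor (SRF) and the Hippo pathway co-activators YAP and TAZ.

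The sequences below carry the motifs of the factors and of the gene programmes that separated the lines. They are stretches upstream of the transcription start (RefSeq, GRCh38.p14, coding strand, 5′ to 3′), with matches in capitals. SUCNR1 and HAS3 are shown as genes high in the Oct4 line and low in OSK, MCM6 and BUB1B as a replication gene and a mitotic gene high in OSK, and CCN2 as a TEAD target low in OSK. The genes printed, their stretches and the motifs marked were picked by hand and not by a rule. MCM6 and BUB1B were chosen after their values were seen.
SUCNR1 (chr3:151873543-151873642, + strand, bases -100 to -1; capitals, octamer ATGCAAAT): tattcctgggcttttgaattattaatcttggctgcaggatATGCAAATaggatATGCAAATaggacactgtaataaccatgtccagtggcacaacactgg
HAS3 (chr16:69107350-69107509, + strand, bases -190 to -31; capitals, a SOX match and then a KLF match): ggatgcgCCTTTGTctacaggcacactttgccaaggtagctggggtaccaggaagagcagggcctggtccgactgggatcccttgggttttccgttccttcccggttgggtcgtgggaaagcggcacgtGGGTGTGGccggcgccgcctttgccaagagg
MCM6 (chr2:135876484-135876603, - strand, bases -160 to -41; capitals, 2 E2F matches and a CCAAT match): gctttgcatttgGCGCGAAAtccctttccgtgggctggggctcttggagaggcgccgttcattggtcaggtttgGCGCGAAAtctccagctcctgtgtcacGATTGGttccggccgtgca
BUB1B (chr15:40160989-40161068, + strand, bases -80 to -1; capitals, a KLF match and a CHR match): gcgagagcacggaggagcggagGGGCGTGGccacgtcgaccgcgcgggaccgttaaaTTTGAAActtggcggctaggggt
CCN2 (chr6:131951433-131951492, - strand, bases -120 to -61; capitals, a TEAD match): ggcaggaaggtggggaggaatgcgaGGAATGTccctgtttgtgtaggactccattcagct

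The motifs were searched on both strands in windows from 250 bases before to 50 after each annotated start. They were GGGTGTGG or GGGCGTGG for KLF, ACAATGG or ACAAAGG for SOX, ATGCAAAT for the octamer, TTTCGCGC or TTTCCCGC for E2F, CCAATC for the CCAAT box, TTTGAAA for CHR (the cell cycle homology region of mitotic promoters) and GGAATGT for TEAD. Of the genes tested, 12054 (64%) had a window, and a gene with several starts has several, often overlapping. A KLF match lay in 10.1% of windows of genes higher in OSK, 9.87% of windows of genes lower in OSK and 9.93% of windows of all genes tested. The SOX match lay in 5.83%, 6.39% and 6.23%, and the octamer in 1.33%, 1.21% and 1.39%, in the same order. Over all 35116 windows of the table the shares were 8.05% for KLF, 8.25% for SOX, 1.77% for the octamer, 2.11% for E2F, 6.13% for CHR and 3.46% for TEAD. Among genes higher by log2 1 or more the octamer lay in 2.23% (25 of 1122 windows) and among genes lower by that much in 1.35% (24 of 1783). Windows of the DNA replication genes described below held an E2F match in 30.4% (14 of 46), against 2.95% of all genes tested, and windows of the mitosis genes held a CHR match in 30.8% (12 of 39), against 4.07%. Windows of the YAP and TEAD targets held a TEAD match in 13.6% (3 of 22), against 2.36%. The replication, mitosis and TEAD target lists hold genes known for these elements, so their shares say nothing about OSK against Oct4. A match is a string of letters in these windows and was not tested for binding.

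The delivered genes were read first. POU5F1 had 67326 and 66823 normalised counts in the Oct4 libraries and 19020 and 19542 in OSK (limma log2 change -1.80, SE 0.18, adjusted p = 7.92e-07). The OSK line thus held 28.7% of the POU5F1 level of the line it was compared with, so the comparison is not one at equal Oct4. SOX2 had 197 and 179 in the Oct4 line and 17764 and 17582 in OSK (limma log2 change 6.55, SE 0.20, adjusted p = 2.15e-12). KLF4 had 248 and 242 in Oct4 and 24470 and 24202 in OSK (limma log2 change 6.63, SE 0.31, adjusted p = 1.59e-10). Both genes were at 3-digit values in the Oct4 line and at 5-digit values in OSK. POU5F1 has near-identical pseudogene copies, whose reads the counting may have split. The part of the lower POU5F1 level in the results below was not tested.

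Recovered depth was even across the 4 libraries, at 15588541 and 15566391 reads for Oct4 and 15726880 and 15556526 for OSK. OSK replicate 1 stood apart from its partner: 32493 features had a read there, against 26428 in OSK replicate 2 and 26390 and 26628 in Oct4. Of 405 olfactory receptor genes, 23.0% had a read in OSK replicate 1, against 6.42% in OSK replicate 2 and 7.65% and 6.91% in Oct4. GFP replicate 1 showed the same in larger measure (67.7%) and enters the comparison of OSK with Oct4 only through the shared estimate of spread, but enters the values of GFP and the steps from it directly. Without OSK replicate 1 and GFP replicate 1, 6823 genes were called, and 84.1% of the 7585 calls made with all libraries were among them in the same direction. In that fit 35 DNA replication genes and 40 mitosis genes were higher in OSK and 22 contractile genes lower. Of the pigment cell genes, MITF had 1786 and 1999.5 in Oct4 and 1590.3 and 1732 in OSK, whereas RPE65, the isomerase that defines mature RPE, had 0 and 0 in Oct4 and 1.08 and 1.10 in OSK.

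Between OSK and Oct4, 40.3% of the genes tested passed the threshold (limma adjusted p under 0.05), 18.4% higher in OSK and 21.9% lower. The shares of list members given below are to be read against these shares, and a count near them is no result about its list. A log2 change of at least 1 was reached by 1137 of the higher genes (6.04% of those tested) and 1795 of the lower ones (9.53%). Of the higher genes 192 changed by log2 3 or more, and of the lower genes 188. Small changes made up more of the rises than of the falls: 37.2% of the rises and 24.5% of the falls were under log2 0.5. Log2 changes are on the log2(value + 1) scale, on which changes of genes near 0 look smaller than they are. Called genes named below from the lists had OSK and Oct4 libraries that did not overlap, as their choice required. Over all genes tested the libraries did not overlap in 34.1% with OSK higher and in 36.3% with OSK lower. Protein-coding genes were called in 22.5% (higher) and 25.2% (lower), long intergenic RNAs in 9.58% and 14.7%, and antisense RNAs in 6.27% and 13.8%.

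The 10 largest rises among protein-coding genes with a mean of at least 100, the delivered genes left out, were SCNN1B, GALNT15, APLNR, KRT13, MS4A2, CRNN, NFATC2, GPR1, TP73 and FAM20A. APLNR, the receptor for apelin, had 3.48 and 0 in Oct4 and 256 and 235 in OSK, at least 71.01-fold higher when Oct4 is set at 3 reads per library (limma log2 change 6.86, SE 1.07, adjusted p = 8e-05). It was also near 0 in the Sox2 (1.12 and 2.57) and Klf4 (2.31 and 4.57) lines, so its high values were found in the OSK libraries alone among the lines with delivered factors. MS4A2, a chain of the high-affinity IgE receptor, followed the same pattern, with 1.16 and 0 in Oct4, 0 and 0 in Sox2, 2.31 and 0 in Klf4 and 129 and 123 in OSK, at least 36.5-fold above Oct4 (limma log2 change 6.43, SE 1.10, adjusted p = 0.000194; DESeq2 adjusted p = 0.0514). TP73, a transcription factor of the p53 family, had 12.8 and 4.58 in Oct4, 12.3 and 17.1 in Sox2, 13.9 and 12.6 in Klf4 and 446 and 394 in OSK (limma log2 change 5.58, SE 0.70, adjusted p = 8.37e-06). For these 3 genes the Oct4 and OSK libraries were far apart and neither single factor came near the OSK level. Without the OSK libraries, APLNR and MS4A2 would not have reached a value of 10 in 2 libraries, the condition for testing. Their folds and p-values are therefore descriptions.

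The other large rises were also above Oct4 in the Klf4 line. KRT13, a keratin of stratified mucosal epithelia, had 34.8 and 38.9 in Oct4, 1422 and 1469 in Klf4 and 3832 and 2912 in OSK (limma log2 change 6.47, SE 0.25, adjusted p = 1.76e-11). CRNN, the cornified envelope protein cornulin, had 1.16 and 0 in Oct4, 63.6 and 67.4 in Klf4 and 139.8 and 111 in OSK, at least 36.3-fold above Oct4. NFATC2, a calcium-responsive transcription factor, had 85.9 and 84.7 in Oct4, 1965 and 2381 in Klf4 and 5742 and 5964 in OSK, and was 68.6-fold higher in OSK than in Oct4 (limma log2 change 6.08, SE 0.30, adjusted p = 2.19e-10). In each of these genes the OSK libraries lay above the Klf4 libraries and the Klf4 libraries far above Oct4. GPR1, a chemerin receptor, differed in this: OSK (184 and 137) lay below Klf4 (234 and 255), with 2.32 and 2.29 in Oct4. GALNT15, an enzyme that starts O-linked glycosylation, rose by at least 139.6-fold, from 2.32 and 3.43 in Oct4 to 539.9 and 426 in OSK, with 192 and 168 in Klf4. SCNN1B, a subunit of the epithelial sodium channel, had 0 and 4.58 in Oct4, 42.8 and 26.3 in Klf4 and 319 and 335 in OSK, with 66.5, 2.02 and 0 in GFP. FAM20A, a pseudokinase of the secretory pathway, had 5.81 and 8.01 in Oct4, 219.8 and 224 in Klf4 and 405 and 339.9 in OSK. In both genes the Klf4 libraries lay between Oct4 and OSK.

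**Figure D1:**
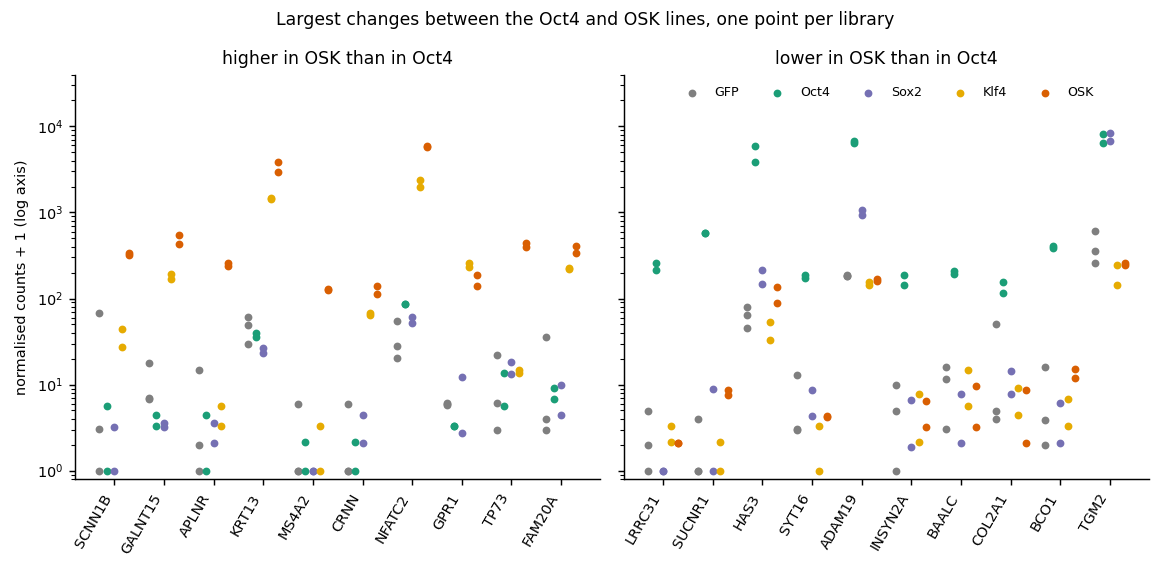
Normalised counts plus 1 (log axis) in every library for the 10 largest rises and the 10 largest falls between the Oct4 and OSK lines, with POU5F1, SOX2 and KLF4 left out; each point is a library and colours mark the 5 lines. OSK and Oct4 libraries do not overlap in any of the 20 genes, as the choice of genes required, and for the falls the OSK points lie within the range of the GFP, Sox2 and Klf4 libraries, except COL2A1 in OSK replicate 2 (1.10, below the others).

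The 10 largest falls were LRRC31, SUCNR1, HAS3, SYT16, ADAM19, INSYN2A, BAALC, COL2A1, BCO1 and TGM2. SUCNR1, the receptor for succinate and the gene with a doubled octamer match above, had 579 and 570.0 in Oct4, 6.50 and 7.70 in OSK and 2.98, 0 and 0 in GFP (limma log2 change -6.16, SE 0.97, adjusted p = 8.96e-05). HAS3, a hyaluronan synthase, had 3825 and 5909 in Oct4 and 87.8 and 135 in OSK (limma log2 change -5.43, SE 0.30, adjusted p = 9.53e-10), with 79.4, 44.5 and 63.2 in GFP. ADAM19, a membrane metalloprotease, had 6777 and 6468 in Oct4 and 160.4 and 169 in OSK, 40.2-fold lower (limma log2 change -5.32, SE 0.10, adjusted p = 1.17e-14), with 179.7, 187 and 184 in GFP. In all of these the OSK libraries lay far nearer to GFP than to Oct4. BCO1, which cleaves beta-carotene to retinal, had 388 and 406 in Oct4 and 14.1 and 11 in OSK (limma log2 change -4.89, SE 0.81, adjusted p = 0.000138). In the Sox2 line HAS3 (146 and 212) and ADAM19 (1058 and 938) were above every GFP library and far below Oct4. TGM2, a protein-crosslinking transglutaminase, was about as high in the Sox2 line as in Oct4. It had 8232 and 6419.7 in Oct4, 8434 and 6701 in Sox2, 142 and 242 in Klf4 and 246 and 255 in OSK (limma log2 change -4.85, SE 0.29, adjusted p = 2.67e-09). The OSK libraries lay near those of GFP and Klf4 and far below the lines with Oct4 or Sox2 alone. LRRC31 and SYT16 were at 3 reads or fewer in each OSK library, at least 72.1-fold and 55.2-fold below Oct4. Without the Oct4 libraries, LRRC31, SUCNR1, SYT16 and INSYN2A would not have reached a value of 10 in 2 libraries, the condition for testing. Their folds and p-values are therefore descriptions.

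The genes that Oct4 alone moved most from GFP were then followed into OSK. These comparisons share the Oct4 libraries, so a gene picked for a high Oct4 value is apt to appear lower in OSK, and the values are set side by side as a description. Oct4 against GFP called 37.3% of genes, 20.1% higher and 17.2% lower. Apart from POU5F1 itself, the 6 largest rises from GFP to Oct4 were SUCNR1, LRRC31, BCO1, HAS3, PLEK2 and INSYN2A. PLEK2, a pleckstrin, had 9.93, 0 and 0 in GFP, 107 and 121 in Oct4 and 8.67 and 6.60 in OSK. INSYN2A, a protein of inhibitory synapses, had 8.94, 0 and 3.89 in GFP, 185 and 143 in Oct4 and 5.42 and 2.20 in OSK. Neither PLEK2 nor INSYN2A would have been tested without the Oct4 libraries. All 6 were lower in OSK than in Oct4 (for PLEK2 limma adjusted p = 0.00558, and 0.0513 without Oct4 replicate 2). The 6 largest falls were KRT38, TYR, SLAMF7, TYRP1, PMEL and MROH2A, of which TYR, TYRP1 and PMEL make melanin or the fibrils that hold it. TYRP1 had 2168, 2491 and 2813 in GFP, 236 and 312 in Oct4 and 923 and 709 in OSK, a rise from Oct4 (limma log2 change 1.57, SE 0.21, adjusted p = 1.58e-05) that stayed under the GFP libraries. TYR had 349.6, 513 and 578 in GFP, 29.03 and 60.7 in Oct4 and 108 and 64.9 in OSK (limma adjusted p = 0.0631, OSK against Oct4), PMEL had 4094, 5281 and 6067 in GFP, 524 and 700.5 in Oct4 and 868 and 749 in OSK (0.149), and MROH2A had 140.0, 129 and 115 in GFP, 12.8 and 17.2 in Oct4 and 31.4 and 11 in OSK (0.63). KRT38, a hair keratin, fell further, with 995, 1318 and 1362 in GFP, 73.2 and 144 in Oct4 and 58.5 and 44 in OSK (limma log2 change -1.0, SE 0.28, adjusted p = 0.00887; 0.183 without Oct4 replicate 2 and 0.1 without OSK replicate 2). The immune receptor gene SLAMF7 had 1123, 1258 and 1336 in GFP, 127 and 129 in Oct4 and 234 and 207 in OSK (limma log2 change 0.78, SE 0.23, adjusted p = 0.0128), a call that was lost without either Oct4 library (adjusted p = 0.0651 and 0.0566) and without OSK replicate 1 (0.0978). In OSK the libraries of all 6 lay below every GFP library.

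Genes of the cell cycle were higher in OSK. Of 41 DNA replication genes, 34 rose (82.9%, against 18.4% of all genes) and 0 fell, with a median log2 change of 0.98 against -0.0042 over all genes tested. All 40 mitosis genes rose (median 2.14) and 0 fell. The edgeR and DESeq2 fits also called 0 members of either list lower, and in the limma fit every member's change was above 0. DNA replication genes license and copy the genome in S phase, under E2F factors, and mitosis genes build the spindle and divide the cell. E2F1, the factor that drives S-phase genes, had 116 and 86.98 in Oct4 and 801 and 822 in OSK (limma log2 change 3.0, SE 0.16, adjusted p = 5.41e-10). TK1, thymidine kinase, had 118 and 119 in Oct4 and 988 and 919.5 in OSK (limma log2 change 2.99, SE 0.18, adjusted p = 3.34e-09), and MCM6, a subunit of the replicative helicase, had 367 and 404 in Oct4 and 831 and 748 in OSK (limma log2 change 1.03, SE 0.10, adjusted p = 4.86e-07). MKI67, the Ki-67 proliferation marker, had 258 and 291 in Oct4 and 2167 and 1964 in OSK (limma log2 change 2.91, SE 0.13, adjusted p = 1.35e-10). CEP55, which acts in the last cut between daughter cells, had 39.5 and 51.5 in Oct4 and 297 and 304 in OSK (limma log2 change 2.71, SE 0.22, adjusted p = 9.12e-08), and BUB1B, a spindle checkpoint kinase, had 47.6 and 45.8 in Oct4 and 220.1 and 235 in OSK (limma log2 change 2.26, SE 0.23, adjusted p = 7.16e-07). The smallest rise of the mitosis list was log2 0.57, and the smallest change of the replication list, not called, was 0.067. For each gene named here the 2 libraries of a line lay close together and those of Oct4 and OSK far apart.

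The other lines place these values. The median of the mitosis list relative to GFP was log2 0.31 in Oct4, 1.46 in Sox2, 2.51 in Klf4 and 2.45 in OSK, and that of the replication list was 0.0023, 0.78, 0.87 and 0.81. MKI67 had 189.7, 251 and 213 in GFP, 878 and 945 in Sox2 and 2077 and 2721 in Klf4. Oct4 was therefore the line nearest to GFP, and OSK was near the Klf4 line. The list of p53 targets and inhibitors of cyclin-dependent kinases, which hold the cycle back, had members in both directions, 11 of 30 higher (36.7%) and 8 lower (26.7%). CDKN2C, the p18 inhibitor, had 95.2 and 98.4 in Oct4 and 409 and 373 in OSK (limma log2 change 2.0, SE 0.16, adjusted p = 4.55e-08). GADD45A, a stress-response gene, had 4798 and 4669 in Oct4 and 1856 and 1889.6 in OSK (limma log2 change -1.34, SE 0.09, adjusted p = 1.56e-08), and TP53I3, a p53 target, had 706 and 546 in Oct4 and 250.4 and 255 in OSK (limma log2 change -1.29, SE 0.15, adjusted p = 3.06e-06). GDF15, a secreted stress signal, had 25.6 and 18.3 in Oct4 and 48.8 and 56.1 in OSK (limma log2 change 1.24, SE 0.44, adjusted p = 0.033), but its adjusted p lay between 0.0541 and 0.185 when any of the 4 libraries was left out. The number of higher members of this list fell to between 6 and 7 when a library was left out.

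**Figure D2:**
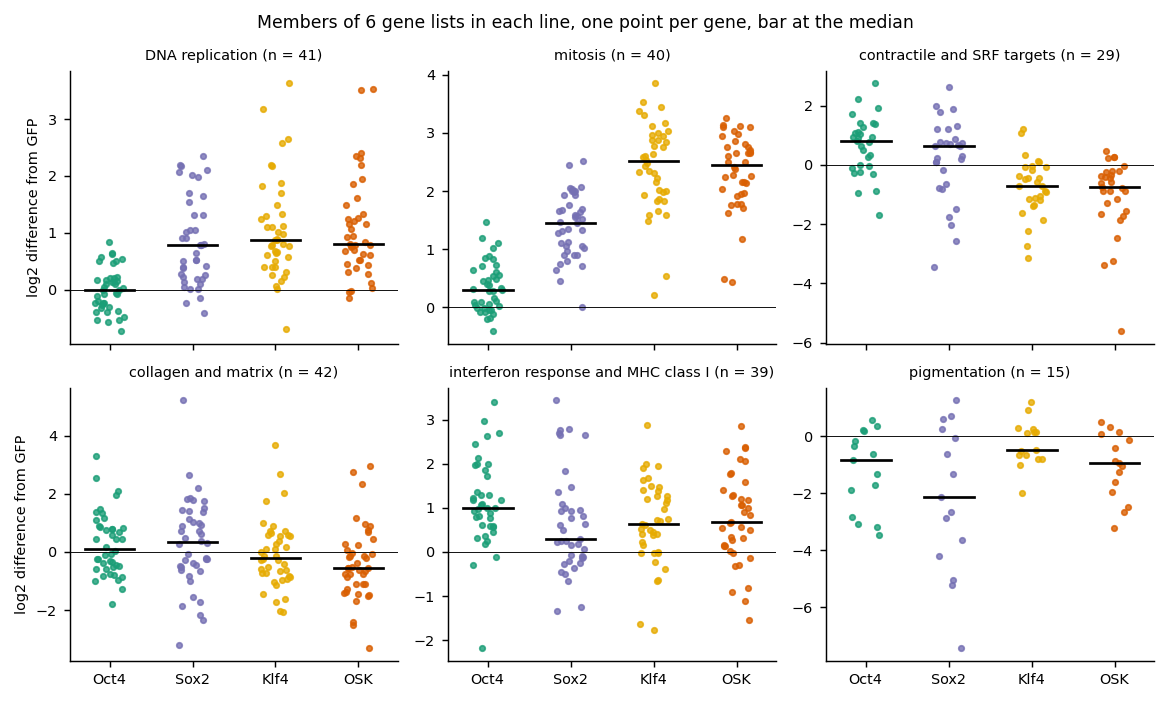
Log2 difference from GFP in the Oct4, Sox2, Klf4 and OSK lines for the tested members of 6 gene lists; each point is a gene and the black bar is the list's median. The 4 sets of a panel share the GFP libraries. In the mitosis panel the medians are 0.31, 1.46, 2.51 and 2.45, and in the contractile panel 0.81, 0.62, -0.70 and -0.73.

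Contractile genes were lower in OSK. Of 29 tested genes of the actin and smooth-muscle apparatus and targets of SRF, 22 fell (75.9%, against 21.9% of all genes) and 0 rose (median log2 change -1.51). With an unadjusted limma p under 0.05, 0 were higher as well, and edgeR and DESeq2 also called 0 higher. ACTA2, smooth-muscle actin, had 2902 and 3703 in Oct4 and 176 and 153 in OSK (limma log2 change -4.31, SE 0.30, adjusted p = 1.56e-08), with 266, 752 and 567 in GFP. ACTC1, cardiac actin, had 425 and 385 in Oct4 and 15.2 and 15.4 in OSK (limma log2 change -4.64, SE 0.30, adjusted p = 6.09e-09), with 118, 236 and 165 in GFP. The Oct4 line lay above GFP and the OSK line below it for both actins. Relative to GFP the list's median was log2 0.81 in Oct4, 0.62 in Sox2, -0.70 in Klf4 and -0.73 in OSK.

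YAP and TEAD targets, which report on cell spreading and tension, followed with 17 of 25 lower (68%) and 5 higher (20%), with a median of -0.69. CCN2, a matrix-associated growth regulator, had 65467 and 50425 in Oct4 and 6724 and 8848 in OSK (limma log2 change -2.90, SE 0.16, adjusted p = 1.06e-09). ANKRD1, a nuclear ankyrin-repeat protein, had 4191 and 4442 in Oct4 and 564 and 563 in OSK (limma log2 change -2.93, SE 0.20, adjusted p = 8.34e-09). Of the members that rose, F3, the tissue factor that starts coagulation, had 2725 and 2548 in Oct4, 6889 and 6957 in Klf4 and 17904 and 16535 in OSK (limma log2 change 2.71, SE 0.08, adjusted p = 7.84e-13), and MYOF, a membrane-repair protein, had 1550.2 and 1771 in Oct4, 6382 and 5555 in Klf4 and 9646 and 8222 in OSK (limma log2 change 2.43, SE 0.11, adjusted p = 1.3e-10). The share that rose was near the 18.4% of all genes, so the rises are no result about the list. In OSK, F3 and MYOF lay above every Oct4 and Klf4 library.

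Matrix genes fell in 20 of 42 (47.6%) and rose in 8 (19.0%), with a median of -0.52. FN1, fibronectin, had 68911 and 61434 in Oct4, 3450.5 and 4298 in OSK and 5613, 7716 and 6460.4 in GFP (limma log2 change -4.08, SE 0.18, adjusted p = 1.07e-10). POSTN, periostin, had 60.4 and 45.8 in Oct4 and 4.34 and 3.30 in OSK (limma log2 change -3.48, SE 0.58, adjusted p = 0.000148). In OSK both lay below every GFP library. Of the rises, COL4A3, a basement-membrane collagen, had 3513 and 3719 in Oct4 and 16845 and 15770 in OSK (limma log2 change 2.17, SE 0.08, adjusted p = 1.3e-11), and MFAP5, a microfibril protein, had 3.48 and 21.8 in Oct4 and 106 and 59.4 in OSK (limma log2 change 2.99, SE 0.59, adjusted p = 0.000673). Regulators and markers of epithelial-mesenchymal transition were divided, with 6 of 17 higher and 6 lower (35.3% each). PRRX1, a mesenchymal homeobox factor, had 217 and 249.5 in Oct4 and 43.4 and 53.9 in OSK (limma log2 change -2.24, SE 0.24, adjusted p = 1.35e-06). S100A4 (17.4 and 8.01 in Oct4 against 91.1 and 83.6 in OSK) and PLAUR, the urokinase receptor (161 and 80.1 in Oct4 against 552 and 547 in OSK), rose by log2 2.78 (SE 0.40) and 2.26 (SE 0.23). S100A4 overlaps S100A3, which had a log2 change of 2.92. Fibroblast markers were read beside these lists: of 8 listed, 5 were tested, PDGFRB and FAP were lower and PI16 was higher. The summed level was 10470 and 8463 in Oct4 against 4671 and 5273 in OSK, most of it from PDGFRB. PDGFRB had 9514 and 7704 in Oct4 and 4529 and 5085 in OSK, and was higher in GFP (10874, 11534 and 11366) than in Oct4. FAP had 896 and 699 in Oct4 and 41.2 and 78.1 in OSK, and DPT was at 0 in all 4 libraries. The part of such cells in the matrix result was not tested.

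Signals that act on these programmes were examined by role. Among TGF-beta and BMP genes 12 of 36 rose (33.3%) and 18 fell (50%). GDF6, a BMP ligand, had 136 and 81.3 in Oct4 and 6.50 and 5.50 in OSK (limma log2 change -3.93, SE 0.41, adjusted p = 1.35e-06), and LTBP2, a binding protein of the latent TGF-beta family, had 24185 and 18128 in Oct4 and 3035 and 3733 in OSK (limma log2 change -2.64, SE 0.22, adjusted p = 8.74e-08). The secreted inhibitors NOG (22.1 and 25.2 in Oct4, 273 and 242 in OSK), which binds BMPs, and FST (65.03 and 45.8 in Oct4 and 305 and 252 in OSK), which binds activin, rose by log2 3.39 (SE 0.26) and 2.32 (SE 0.30). In the Wnt list 13 of 32 fell (40.6%) and 2 rose (6.25%), with a median of -0.46. SFRP4, a secreted Wnt antagonist, had 4109 and 3256 in Oct4 and 164 and 364 in OSK (limma log2 change -3.90, SE 0.26, adjusted p = 9.28e-09). Its annotated span overlaps EPDR1, which also fell (log2 change -2.40). FZD5, a Wnt receptor, had 1244 and 1281 in Oct4 and 444 and 529 in OSK (limma log2 change -1.38, SE 0.10, adjusted p = 2.83e-08). The 2 that rose were the ligand WNT9A, with 151 and 173 in Oct4 and 812 and 891 in OSK (log2 2.39 with SE 0.12), and the receptor FZD7, with 317 and 239 in Oct4 and 549.6 and 679.7 in OSK (log2 1.15 with SE 0.14). Of 17 Notch genes 5 rose (29.4%) and 4 fell (23.5%). LFNG, which glycosylates Notch, had 5.81 and 9.16 in Oct4 and 60.7 and 89.1 in OSK (log2 3.16 with SE 0.38), and the target HES4 had 145 and 144 in Oct4 and 762 and 711 in OSK (log2 2.34 with SE 0.23). The target HEY1 went down, with 87.1 and 88.1 in Oct4 and 33.6 and 28.6 in OSK (log2 -1.47 with SE 0.28), as did the ligand JAG2, with 168 and 168 in Oct4 and 109 and 94.6 in OSK (log2 -0.72 with SE 0.15). The number of Notch members called in either direction dropped to 3 higher or 2 lower in some of the fits that left out a library.

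Of 32 epithelial junction genes 5 rose and 7 fell (15.6% and 21.9%, near the 18.4% and 21.9% of all genes; median 0.023), so the counts are no result about the list, and single members are given. CGN, the tight-junction protein cingulin, had 58.1 and 50.4 in Oct4 and 612 and 541 in OSK (limma log2 change 3.39, SE 0.18, adjusted p = 4.81e-10), and MARVELD3, another tight-junction protein, had 12.8 and 10.3 in Oct4 and 86.7 and 96.8 in OSK (limma log2 change 2.89, SE 0.51, adjusted p = 0.00028). CDH1, E-cadherin, went the other way, with 281 and 263 in Oct4 and 71.5 and 47.3 in OSK (limma log2 change -2.21, SE 0.18, adjusted p = 8.89e-08), and lay below all libraries of the other lines. CLDN3, a claudin, had 45.3 and 29.8 in Oct4 and 11.9 and 9.90 in OSK (limma log2 change -1.67, SE 0.48, adjusted p = 0.0106; 0.102 without Oct4 replicate 1 and 0.0673 without OSK replicate 2). Among keratins, desmosome and cornified envelope genes 7 of 29 rose (24.1%) and 11 fell (37.9%). KRT33B, a hair keratin, had 124 and 143 in Oct4, 207 and 238 in Klf4 and 2021 and 1441 in OSK (limma log2 change 3.67, SE 0.19, adjusted p = 3.92e-10), and DSC2, a desmosomal cadherin, had 1183 and 973 in Oct4 and 275 and 371 in OSK (limma log2 change -1.74, SE 0.12, adjusted p = 1.36e-08). Keratin genes share sequence, and their reads may have been split. Of 24 epithelial ion channels and transporters 7 rose (29.2%) and 3 fell (12.5%). KCNN4, a calcium-activated potassium channel, had 12.8 and 3.43 in Oct4 and 78.05 and 44 in OSK (log2 2.93 with SE 0.61). SLC4A4, a bicarbonate transporter of the RPE, had 2673 and 3229 in Oct4 and 750.1 and 760.0 in OSK (log2 -1.96 with SE 0.10), and KCNQ5, a potassium channel, had 98.7 and 86.98 in Oct4 and 26.02 and 12.1 in OSK (log2 -2.32 with SE 0.41).

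**Figure D3:**
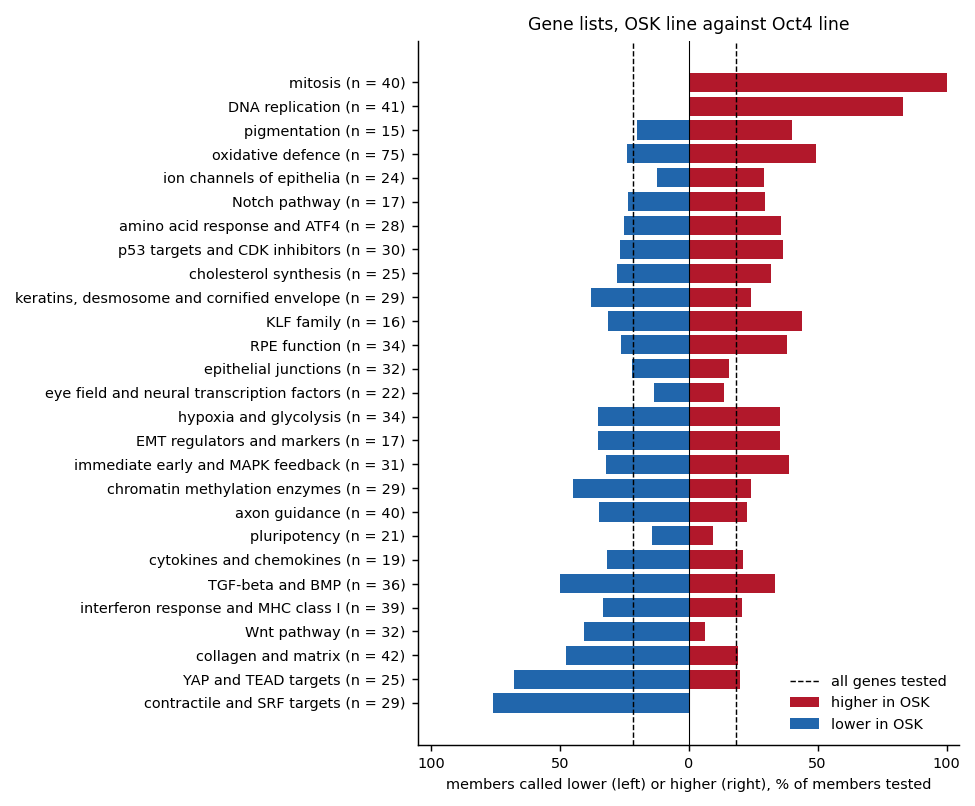
Share of the tested members of each gene list that was called lower (left, blue) or higher (right, red) in OSK than in Oct4, with lists in order of their median log2 change and the number of tested members in brackets. Dashed lines mark the shares over all genes tested, 21.9% lower and 18.4% higher; mitosis reaches 100% on the right and contractile genes 75.9% on the left.

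RPE identity genes changed in both directions. In the pigmentation list 6 of 15 rose (40%) and 3 fell (20%), with a median of 0.32. Beside TYRP1, SLC45A2, a melanosome transporter, had 9.29 and 28.6 in Oct4 and 58.5 and 38.5 in OSK (limma log2 change 1.47, SE 0.47, adjusted p = 0.0195; 0.282 without Oct4 replicate 1 and 0.159 without OSK replicate 1). GPNMB, a melanosomal glycoprotein, had 28423 and 27926 in Oct4 and 9235 and 9036 in OSK (limma log2 change -1.62, SE 0.10, adjusted p = 2.18e-09). OTX1, a homeobox factor, had 62.7 and 41.2 in Oct4 and 28.2 and 30.8 in OSK (limma log2 change -0.77, SE 0.28, adjusted p = 0.0385), a call lost in DESeq2 (adjusted p = 0.121), with the replicate number as a block (limma adjusted p = 0.0574) and in several other settings. Without Oct4 replicate 1 the pigmentation list had 3 members higher, and without either OSK library 1 lower. Among genes of RPE function 13 of 34 rose (38.2%) and 9 fell (26.5%). CD55, which protects cells from complement, had 2414 and 2281 in Oct4, 9769 and 9799 in Klf4 and 20478 and 19128 in OSK (log2 3.08 with SE 0.08). CD59, another inhibitor of complement, had 5236 and 5290.0 in Oct4, 9314 and 9186 in Klf4 and 17737 and 17386 in OSK (log2 1.74 with SE 0.08). For both the order was Oct4, Klf4, OSK with no overlap. GAS6, a ligand for the phagocytosis receptor MERTK, had 3585 and 3318 in Oct4 and 1313 and 1168 in OSK (limma log2 change -1.48, SE 0.15, adjusted p = 8.06e-07), and SLC16A8, a lactate transporter of the RPE, had 48.8 and 58.4 in Oct4 and 8.67 and 8.80 in OSK (limma log2 change -2.48, SE 0.59, adjusted p = 0.00301).

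Pluripotency genes beyond the delivered factors were read next. Of 34 listed, 21 were tested, 2 rose and 3 fell, shares of 9.52% and 14.3% that were under those of all genes. With so few genes the counts are no result about the list, and single members are given. NANOG, a core pluripotency factor, had 5.81 and 8.01 in Oct4 and 8.67 and 12.1 in OSK (limma adjusted p = 0.58), and LIN28A, an RNA-binding protein of stem cells, had 196 and 221 in Oct4 and 136 and 201 in OSK (0.229); both are named for their role. JARID2, a Polycomb partner, had 641 and 625 in Oct4 and 821 and 894 in OSK (limma log2 change 0.44, SE 0.12, adjusted p = 0.00779; 0.0784 without OSK replicate 2). MYC had 1297 and 1264 in Oct4 and 1538 and 1529 in OSK (limma log2 change 0.26, SE 0.09, adjusted p = 0.0299), a call that was lost when any of the 4 libraries was left out (0.0773 to 0.129). KLF5 had 2218 and 2311 in Oct4 and 956 and 1088 in OSK (limma log2 change -1.15, SE 0.08, adjusted p = 7.55e-09), and PODXL, a surface sialomucin, had 2402 and 2812 in Oct4 and 1771 and 1643 in OSK (limma log2 change -0.61, SE 0.16, adjusted p = 0.00513; 0.0712 without Oct4 replicate 2). Of 16 tested members of the KLF family, counted without KLF4 and KLF5, 7 rose (43.75%) and 5 fell (31.25%). KLF3, a repressor of the family, had 910.4 and 822 in Oct4, 6782 and 6973 in Klf4 and 9555 and 9313 in OSK (limma log2 change 3.45, SE 0.07, adjusted p = 3.02e-14), and KLF9 had 3280.3 and 2985 in Oct4, 3616 and 3966 in Klf4 and 8914 and 8889 in OSK (limma log2 change 1.51, SE 0.07, adjusted p = 2.54e-10). KLF6 (1247 and 1162 in Oct4 against 563 and 552 in OSK) and KLF7 (2222 and 2164 in Oct4 against 1064 and 1089 in OSK) fell by about a log2 unit (-1.11 with SE 0.10 and -1.03 with SE 0.08). Of 22 eye-field and neural factors 3 rose and 3 fell (13.6% each, under the shares of all genes), so single members are given. SIX3, a forebrain and eye factor, had 1031 and 983 in Oct4 and 4247 and 3983 in OSK, and SIX2 had 16.3 and 5.72 in Oct4 and 72.6 and 92.4 in OSK, both higher (log2 2.03 with SE 0.07 and 2.94 with SE 0.61). POU3F2 (129 and 125 in Oct4 and 41.2 and 36.3 in OSK) and DACH1 (432 and 372 in Oct4 and 126 and 139 in OSK) were lower (log2 -1.69 with SE 0.23 and -1.60 with SE 0.14).

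The series title names resistance to oxidation and GSTA4 as its subject. GSTA4, a glutathione transferase that clears reactive aldehydes from lipid peroxidation, had 183 and 192 in Oct4 and 515 and 464 in OSK (limma log2 change 1.38, SE 0.19, adjusted p = 2.24e-05). It had 169 and 194 in Sox2, 177 and 129 in Klf4 and 88.4, 127 and 125 in GFP, so the OSK libraries were above every other library. The OSK-over-Oct4 change in GSTA4 was larger than the Klf4-over-GFP change (difference of log2 0.95, SE 0.26, limma adjusted p = 0.0123), and larger than the Sox2-over-GFP change (log2 0.69, SE 0.26, limma adjusted p = 0.0383). Of 75 other oxidative defence genes tested, 37 rose and 18 fell, 49.3% and 24.0% against 18.4% and 21.9% of all genes. The median log2 change was 0.26. GLRX, a glutaredoxin that reduces protein-glutathione bonds, had 128 and 181 in Oct4, 116 and 113 in Sox2, 183 and 177 in Klf4 and 1042 and 1119 in OSK (limma log2 change 2.82, SE 0.15, adjusted p = 6.12e-10). SLC7A11, the cystine importer that feeds glutathione synthesis, had 23.2 and 27.5 in Oct4, 205 and 206 in Sox2 and 139.8 and 172 in OSK (limma log2 change 2.57, SE 0.24, adjusted p = 3.1e-07). GLRX in the OSK libraries was far above every other library, whereas for SLC7A11 the Sox2 libraries lay above those of OSK. GLRX overlaps RHOBTB3, which fell (log2 change -1.30). MSRB2, which repairs oxidised methionine, had 267 and 254 in Oct4 and 109 and 93.5 in OSK (limma log2 change -1.36, SE 0.23, adjusted p = 0.000196), and GSTZ1, a transferase of tyrosine breakdown, had 229 and 219 in Oct4 and 88.9 and 100.1 in OSK (limma log2 change -1.24, SE 0.16, adjusted p = 1.61e-05).

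**Figure D4:**
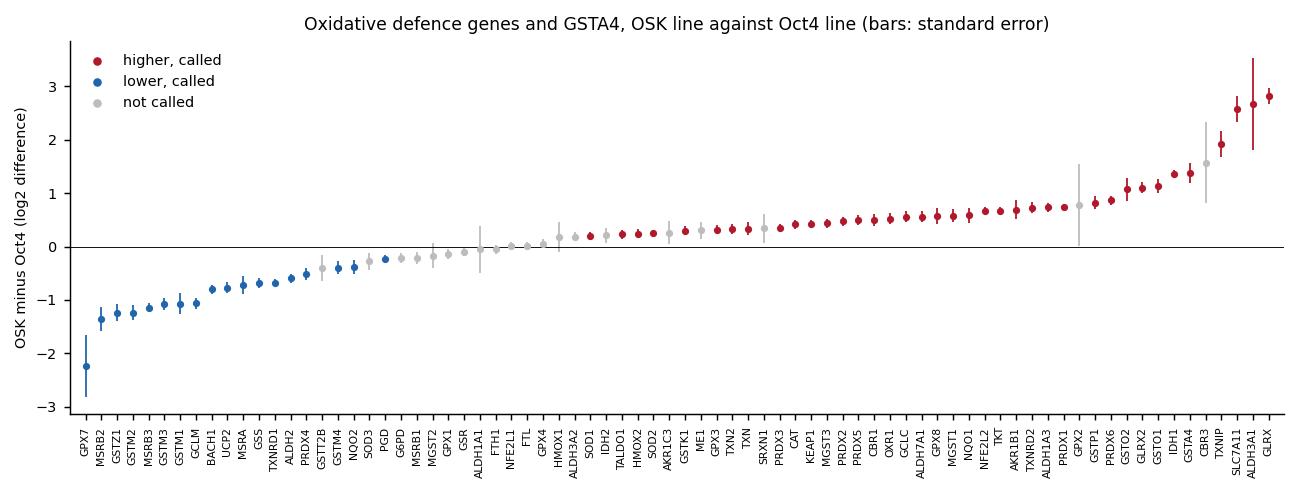
Log2 difference between OSK and Oct4 (points, with standard error bars) for the 75 tested oxidative defence genes and GSTA4, in order of size; red marks genes called higher, blue genes called lower and grey genes not called. GLRX lies highest at 2.82 and GPX7 lowest at -2.24, with 37 red and 18 blue points beside GSTA4 at 1.38.

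Metabolic lists were mixed. In the amino acid and ATF4 list 10 of 28 rose (35.7%) and 7 fell (25%). PHGDH, the first enzyme of serine synthesis, had 195 and 275 in Oct4, 591 and 574 in Sox2, 471 and 603 in Klf4 and 2422 and 2600.2 in OSK (limma log2 change 3.43, SE 0.14, adjusted p = 4.31e-11). CTH, which makes cysteine from cystathionine, had 32.5 and 34.3 in Oct4 and 219 and 218 in OSK (limma log2 change 2.67, SE 0.22, adjusted p = 7.82e-08), above the 2 Klf4 libraries (64.8 and 65.1). ATF3, a stress-induced factor, had 314 and 306 in Oct4 and 75.9 and 109 in OSK (limma log2 change -1.76, SE 0.18, adjusted p = 1.12e-06), and SLC1A4, a neutral amino acid transporter, had 329 and 302 in Oct4 and 143 and 145 in OSK (limma log2 change -1.12, SE 0.13, adjusted p = 3.67e-06). Hypoxia and glycolysis genes rose in 12 of 34 and fell in 12 (35.3% each). CA9, a carbonic anhydrase induced by hypoxia, had 26.7 and 46.9 in Oct4, 279.7 and 186 in OSK and 2792 and 1756 in Klf4 (log2 2.65 with SE 0.31, OSK against Oct4), and SLC2A1, the glucose transporter GLUT1, had 29420 and 25497 in Oct4 and 60506 and 62076 in OSK (log2 1.16 with SE 0.09). ADM, the vasodilator peptide adrenomedullin, had 2029 and 1923 in Oct4 and 141 and 162 in OSK, and PFKFB3, an activator of glycolysis, had 2609 and 2583 in Oct4 and 817 and 769.9 in OSK (log2 -3.70 with SE 0.13 and -1.71 with SE 0.13). Without Oct4 replicate 1 or OSK replicate 2, 7 hypoxia and glycolysis genes were called higher. Cholesterol synthesis genes rose in 8 of 25 (32%) and fell in 7 (28%), by no more than about a log2 unit (changes from -1.01 to 0.67). LSS, lanosterol synthase, had 6022 and 5644 in Oct4 and 2773 and 3009 in OSK, and STARD4, a cholesterol carrier, had 797 and 709.6 in Oct4 and 487 and 439 in OSK (log2 -1.01 with SE 0.07 and -0.70 with SE 0.10). NSDHL, a sterol dehydrogenase, had 620.1 and 596 in Oct4 and 825 and 836 in OSK (log2 0.45 with SE 0.09), and EBP, a sterol isomerase, had 208 and 159 in Oct4 and 291 and 257 in OSK (limma log2 change 0.59, SE 0.15, adjusted p = 0.00573; 0.0937 without Oct4 replicate 2 and 0.0642 without OSK replicate 1).

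Of 39 tested interferon and antigen presentation genes, 8 rose (20.5%) and 13 fell (33.3%), with a median of -0.43. The falls were IFIT2, IFIT3, IFI35, IFI44L, IFITM1, ISG20, STAT2, IRF1, IRF7, HERC5 and BST2, which respond to interferon, and CD74 and TAPBP, which act in antigen presentation. The rises were IFITM2 and IFITM3 and, of antigen presentation, HLA-C, HLA-E, HLA-F, B2M, PSMB8 and NLRC5. This division by role was made after the values were seen. IRF1, an interferon-induced transcription factor, had 1718 and 1648 in Oct4, 366 and 406 in OSK and 183, 152 and 148 in GFP (limma log2 change -2.12, SE 0.12, adjusted p = 1.43e-09), and BST2, tetherin, had 51.1 and 65.2 in Oct4 and 14.1 and 8.80 in OSK (limma log2 change -2.27, SE 0.52, adjusted p = 0.00232). NLRC5, the activator of MHC class I genes, had 392 and 379 in Oct4 and 1330.1 and 1134 in OSK (limma log2 change 1.67, SE 0.19, adjusted p = 3.4e-06), and HLA-F had 253 and 302 in Oct4 and 825 and 628 in OSK (limma log2 change 1.38, SE 0.17, adjusted p = 6e-06). HLA genes share sequence, and their values are uncertain to that extent. Relative to GFP the list's median was log2 0.99 in Oct4 and 0.68 in OSK, so both lines were above GFP. Without Oct4 replicate 1 or OSK replicate 1, 5 members were called higher.

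In the cytokine list 4 of 19 rose (21.1%) and 6 fell (31.6%). NFKBIA, the inhibitor of NF-kappaB and its target, had 1753, 1442 and 1546 in GFP, 441 and 401 in Oct4 and 2757 and 3369 in OSK (limma log2 change 2.85, SE 0.12, adjusted p = 4.92e-11), and IL33, a nuclear alarm cytokine, had 252, 198 and 259 in GFP, 58.1 and 84.7 in Oct4 and 189.7 and 139 in OSK (limma log2 change 1.20, SE 0.25, adjusted p = 0.00107). CXCL16, a chemokine, had 525 and 611 in Oct4 and 288 and 283 in OSK (log2 -0.99 with SE 0.14). TNFAIP3, a brake on NF-kappaB, had 37.2 and 76.7 in Oct4 and 21.7 and 12.1 in OSK (limma log2 change -1.66, SE 0.49, adjusted p = 0.0131; 0.171 without Oct4 replicate 2 and 0.133 without OSK replicate 2). Immediate early and MAPK feedback genes rose in 12 of 31 (38.7%) and fell in 10 (32.3%). The nuclear receptor NR4A1 had 194 and 192 in Oct4 and 915 and 883 in OSK (log2 2.21 with SE 0.15), and NR4A3 had 39.5 and 48.1 in Oct4 and 197 and 180.4 in OSK (log2 2.09 with SE 0.25). DUSP6, a phosphatase that shuts off ERK, had 87.4, 91.05 and 77.8 in GFP, 662 and 686 in Oct4, 1089 and 1236 in Sox2 and 145 and 133 in OSK (limma log2 change -2.27, SE 0.14, adjusted p = 4.54e-09), and DUSP2 had 42.96 and 54.9 in Oct4 and 10.8 and 9.90 in OSK (log2 -2.13 with SE 0.42). DUSP6 was thus raised by either Oct4 or Sox2 alone and was lower in the line that carried both with Klf4.

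Of 40 axon guidance genes 9 were higher (22.5%) and 14 lower (35%). SEMA3B, a secreted semaphorin, had 3189 and 3156 in Oct4, 72735 and 72714 in Klf4 and 28294 and 25118 in OSK (limma log2 change 3.07, SE 0.08, adjusted p = 7.84e-13). UNC5B, a netrin receptor, had 1204 and 1597 in Oct4, 21038 and 19519 in Klf4 and 12413 and 10449 in OSK (limma log2 change 3.04, SE 0.21, adjusted p = 1.33e-08). Its antisense gene UNC5B-AS1 overlaps it and had 69.7 and 98.4 in Oct4 and 6338 and 4230.2 in OSK. The use of strand in the counting is not given in the sources used here, so their reads cannot be told apart. For both SEMA3B and UNC5B the OSK level lay between Oct4 and Klf4. NRP2, a semaphorin co-receptor, had 1974 and 1699.6 in Oct4 and 74.8 and 109 in OSK (limma log2 change -4.33, SE 0.24, adjusted p = 1.19e-09), near the 55.6, 90.04 and 78.7 of GFP, and EPHB2, an ephrin receptor, had 1693 and 1394 in Oct4 and 328 and 421 in OSK (log2 -2.04 with SE 0.20). Among DNA methylation and Polycomb enzymes 7 of 29 rose (24.1%) and 13 fell (44.8%). HELLS, a remodeller needed for DNA methylation, had 74.3 and 72.1 in Oct4 and 165 and 162 in OSK, and PHF19, a Polycomb accessory protein, had 156 and 149.9 in Oct4 and 262 and 298 in OSK (log2 1.15 with SE 0.18 and 0.87 with SE 0.14). TET1, which oxidises methylcytosine, had 107 and 120.2 in Oct4 and 40.1 and 33 in OSK, and PHC1, a Polycomb subunit, had 1075 and 1054 in Oct4 and 461 and 493 in OSK (log2 -1.61 with SE 0.26 and -1.16 with SE 0.08).

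Markers of other cell types were read in the same way. Of 12 blood cell markers 2 passed the filter, and limma, edgeR and DESeq2 called 0 of them (also 0 with an unadjusted limma p under 0.05). Their summed level was 22.1 and 17.2 in Oct4 and 46.6 and 11 in OSK. Of 8 endothelial markers 4 were tested and 1 was lower, KDR, a receptor for vascular endothelial growth factor, with 698 and 687 in Oct4 and 476 and 504 in OSK (limma log2 change -0.50, SE 0.10, adjusted p = 0.000956). The summed level of the list was 709 and 707 in Oct4 and 565 and 544 in OSK, most of it from KDR. KDR had the lowest change of the tested members, and no other was called. The median log2 change of those tested was 1.68 and the highest 2.32. Of 10 photoreceptor markers 3 were tested and 2 were lower, NRL (29.03 and 48.1 in Oct4 and 14.1 and 13.2 in OSK) and PDE6B (242 and 296 in Oct4 and 188 and 174 in OSK), but 0 were called by DESeq2 or without OSK replicate 1, OSK replicate 2 or Oct4 replicate 2. The cone opsin OPN1LW was at 0 in all 4 libraries, and the summed level of the list was 286 and 363 in Oct4 and 247 and 207 in OSK. Of 10 neuronal and glial markers 6 were tested and 2 were higher, MBP (2476 and 2579 in Oct4 and 4868 and 4285 in OSK) and SYT1 (582 and 754 in Oct4 and 887 and 1005 in OSK), of which SYT1 was not called without Oct4 replicate 1 (adjusted p = 0.115) or OSK replicate 2 (0.0781). Their summed level was 3135 and 3396 in Oct4 and 5857 and 5383 in OSK, most of it from MBP and SYT1. The part of such cells in the results was not tested.

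The change from Oct4 to OSK was last set beside what Klf4 or Sox2 did when added without Oct4. The 2 steps compared, OSK over Oct4 and Klf4 over GFP, share no library. Across the 18828 genes the OSK-over-Oct4 change had a Pearson correlation of 0.401 (Spearman 0.350) with the Klf4-over-GFP change, with a slope of 0.488, and one of -0.0900 (Spearman -0.103) with the Sox2-over-GFP change. With the sum of both single-factor changes it was 0.178. The points share genes and 1 table of normalised values, and genes are no replicates of one another, so these values are descriptions. The Klf4 step called 33.5% of genes (17.6% higher, 16% lower) and the Sox2 step 41.6% (21.7% higher, 19.9% lower).

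Of the genes higher in OSK than in Oct4, 1642 were also higher in Klf4 than in GFP, 47.3% of the first list and 49.7% of the second, and 224 were lower in Klf4 (6.45% and 7.45%). Of the genes lower in OSK, 1606 were lower in Klf4 (39.0% and 53.4%) and 411 were higher (9.99% and 12.4%). With Sox2 the genes spread over both directions. Of the higher genes 912 were higher in Sox2 (26.3% and 22.4%) and 1019 lower (29.4% and 27.2%), and of the lower genes 1403 were higher in Sox2 (34.1% and 34.4%) and 889 lower (21.6% and 23.7%). Of the genes higher in OSK 867 (25.0%), and of those lower 1100 (26.7%), were called in neither single-factor step. Among genes not called between OSK and Oct4 that share was larger, at 58.2% (6541 genes).

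**Figure D5:**
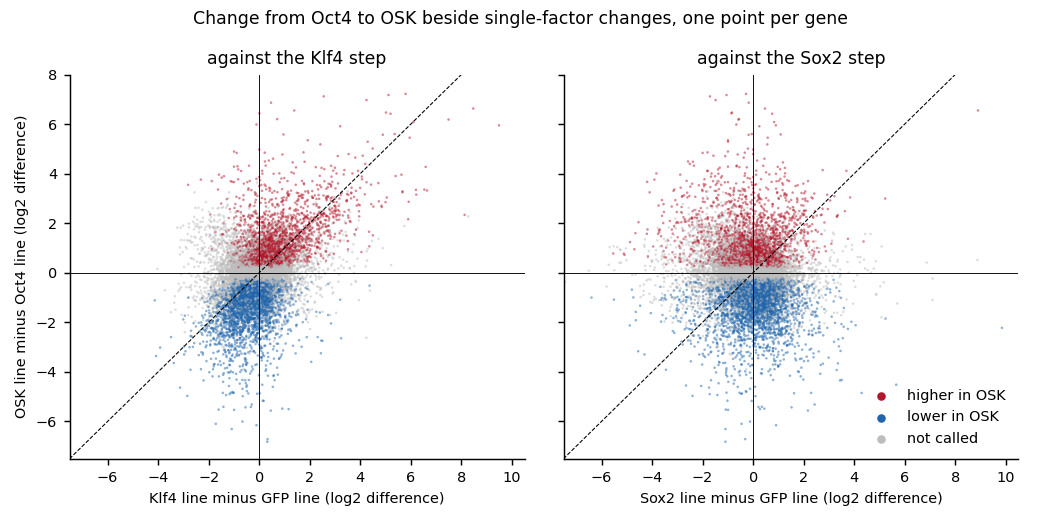
Log2 change from Oct4 to OSK (vertical) against the log2 change from GFP to Klf4 (left) and from GFP to Sox2 (right), one point for each of the 18828 genes tested; red genes were called higher and blue genes lower in OSK than in Oct4, grey genes were not called, and the dashed line marks equal change. The left cloud is tilted upward (Pearson 0.401) and the right one is not (-0.0900).

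The difference between steps was tested for each gene. The OSK-over-Oct4 change differed from the Klf4-over-GFP change in 25.5% of genes, 9.91% more positive and 15.6% more negative, and from the Sox2-over-GFP change in 44.4%, 20.8% and 23.6%. Genes named next were picked for the size of this difference, with the delivered genes left out, so it is a description. APLNR and MS4A2, described above, were 2 of the 3 genes furthest above the Klf4 step. The third was AZGP1, a secreted zinc-binding glycoprotein, with 21.9, 2.02 and 3.89 in GFP, 3.47 and 2.29 in Klf4, 13.9 and 24.04 in Oct4 and 362 and 396 in OSK (difference of steps 5.16). AZGP1 was thus high in neither the Klf4 nor the Oct4 line. The lowest were LRRC31, SUCNR1 and KRT16. KRT16, a keratin of activated epidermis, had 23.8, 2.02 and 0 in GFP, 1317 and 1289 in Klf4, 3.48 and 10.3 in Oct4 and 53.1 and 20.9 in OSK (difference -6.00). KRT16 was thus far above GFP in the Klf4 line, and OSK reached only a small part of the Klf4 level. KLF4 itself had 24470 and 24202 in OSK and 24205 and 22142 in Klf4. The cause of the KRT16 difference was not tested. The OSK-over-Oct4 change of KRT16 was not called by limma (adjusted p = 0.102) but was by edgeR (0.0354).

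Against the Sox2 step the highest were SCNN1B, GALNT15 and KRT33B, of which KRT33B had 392, 476 and 544 in GFP and 21.3 and 28.3 in Sox2 (difference 7.86). The lowest were IL7R, TGM2 and CALHM4. IL7R, the receptor for interleukin 7, had 15.9, 0 and 0.970 in GFP, 3192 and 2754 in Sox2, 78.96 and 75.5 in Oct4 and 17.3 and 14.3 in OSK (difference -12.07). CALHM4, of a family of calcium-modulated channels, had 0, 0 and 0 in GFP, 435 and 506 in Sox2, 1.16 and 0 in Oct4 and 1.08 and 1.10 in OSK (difference -8.37). Both were high in the Sox2 line and low in OSK. CALHM4 would not have been tested without the Sox2 libraries. SOX2 itself had 17764 and 17582 in OSK against 29106 and 29141 in Sox2, and its part in these differences was not tested. Of other genes described above, chosen here after their values were seen, PHGDH (log2 3.04, SE 0.19, limma adjusted p = 2.39e-08), GLRX (log2 2.57, SE 0.20, limma adjusted p = 2.05e-07) and NOG (log2 2.96, SE 0.36, limma adjusted p = 1.62e-05) rose more from Oct4 to OSK than from GFP to Klf4. For MKI67 the difference from the Klf4 step was log2 -0.54, SE 0.18, limma adjusted p = 0.0399, and for CGN log2 0.73, SE 0.24, limma adjusted p = 0.0337.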

How the data were processed

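Polyadenylated RNA of 11 ARPE-19 libraries was sequenced. The authors deposited normalised counts, a signal equal to the read count of a gene divided by 1 factor per library; all values were whole multiples of that library's unit within a tolerance of 0.0061, so reads were recovered (15053300 to 19791775 per library). STAR 2.7.1a and featureCounts 1.6.2 appear in the submitters' processing notes, with the builds GRCh38/hg38 and GRCm38/mm10 and no statement of which was used for which files; the use of strand is not given in the sources used here. Of the features, 90.1% matched GENCODE release 29 for gene type and position.

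From the deposited values, limma 3.58.1 (R 4.3.3) was fitted with a trend to log2(value + 1) of the 18828 genes with 10 or more in at least 2 libraries, with 1 mean per line over all 11 libraries (6 residual and 9.21 prior degrees of freedom), with Benjamini-Hochberg adjustment over all of them and a threshold of 0.05. edgeR 4.0.16 and DESeq2 1.42.0 on recovered reads, TMM scaling, no filter, a filter of 50, pseudocounts of 0.5 and 8, a fit to the compared lines alone, a replicate block and leaving out libraries were alternatives. The procedure was tested on simulated data. A difference of steps is (OSK - Oct4) - (Klf4 - GFP), or with Sox2.

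Members and gene lists were chosen with earlier results of these data known. Named genes were the delivered factors and GSTA4; the 10 largest called rises and falls (protein-coding, mean of at least 100, libraries not overlapping, delivered genes left out here and in the next groups); up to 2 rises and 2 falls per list (mean of at least 30); the 6 largest of Oct4 against GFP each way; and the 3 highest and lowest of each difference of steps. MCM6, BUB1B, UNC5B-AS1, RPE65, NANOG, LIN28A, MITF, GPX7, DPT, OPN1LW, the overlapping genes EPDR1, RHOBTB3 and S100A3, and the interferon genes given without values are outside this rule and were chosen after their values were seen. A fold of "at least" sets a line with 3 reads or fewer per library at 3 reads. Some genes that the rule picks are not reported here. Of the 141 genes picked, 37 overlap another tested gene.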

Additional observations from a re-analysis of the deposited data

How the results depend on the processing

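The number of genes differing between OSK and Oct4 was 7585 and stayed within 1.5 times of that under every alternative: 7342 with edgeR, 6483 with DESeq2, 6438 with no filter, and 5993 to 6221 when 1 of the 4 libraries was left out. Of these genes 76.9% to 99.9% were called again in the same direction and 0 in the opposite one. The differences from the Klf4 step (4795 genes) ranged from 3486 to 5368 and those from the Sox2 step (8358) from 7153 to 8773 when a library was left out. GFP replicate 1, and OSK replicate 1 with it, were left out as alternatives added after seeing the data (8323 and 6823 genes).

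Labels give the lines the same replicate numbers but do not say that a number pairs them. The deviations of same-numbered Oct4 and OSK libraries had a correlation of -0.042 across genes, so the numbers were not taken as pairs. With the replicate number as a block 7311 genes differed between OSK and Oct4, 4157 from the Klf4 step and 7918 from the Sox2 step.

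Of 154 genes with values followed through the alternatives, 0 reversed. Outside the leave-one-out fits 7 lost their call in some setting, and when a library was left out 16 did. TYR and PMEL, not called, were called in some (TYR without Oct4 replicate 2, adjusted p = 0.0216; PMEL with only the compared lines, 0.0317). List counts that moved by more than 1.5 times and are not given above were cholesterol synthesis (5 higher without Oct4 replicate 2 or OSK replicate 2, 4 lower without OSK replicate 2), the KLF family (3 lower without OSK replicate 1), pluripotency (0 to 1 higher when a library was left out) and cytokines (2 higher with a filter of 50). Genes near the filter of 10 rest on few reads, and with 2 libraries per line the spread is borrowed from all lines.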

Other observations

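Abundant genes outside the lists and the genes named above were examined by a rule added after the data were seen: protein-coding, with a mean of at least 2000 in OSK or Oct4, in order of the size of the change. Of all 2259 protein-coding genes with such a mean, listed and named genes included, 708 were higher in OSK and 846 lower. Over all tested protein-coding genes 22.5% were higher and 25.2% lower. With the listed and named genes left out, the highest rise was in KCTD12, an auxiliary subunit of GABA-B receptors. It had 159 and 155 in Oct4 and 5436 and 6016 in OSK, against 55.6, 94.1 and 70.96 in GFP and 401 and 377 in Klf4 (limma log2 change 5.18, SE 0.18, adjusted p = 8.71e-12). GSN, the actin-severing protein gelsolin, had 4474 and 3843 in Oct4, 7363 and 7689 in Klf4 and 89669 and 92031 in OSK (limma log2 change 4.45, SE 0.08, adjusted p = 1.18e-14). TM4SF1, a membrane protein of the tetraspanin-like kind, had 310.0 and 350.2 in Oct4, 12140 and 11598 in Klf4 and 9672 and 7892 in OSK (limma log2 change 4.72, SE 0.10, adjusted p = 2.26e-14). TMC6 (239 and 298 in Oct4, 6400.1 and 5662 in OSK) and IGFBP6, which binds insulin-like growth factors (209 and 189 in Oct4 and 4132 and 3609.9 in OSK), rose by log2 4.49 (SE 0.13) and 4.27 (SE 0.12).

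With the listed and named genes left out, the largest fall of an abundant gene was in CYP27A1, the sterol 27-hydroxylase that RPE uses to clear oxysterols. It had 265, 339.9 and 324 in GFP, 3094 and 3119 in Oct4, 168 and 133 in Klf4 and 195 and 186 in OSK (limma log2 change -4.02, SE 0.13, adjusted p = 5.47e-12). NFASC, the cell adhesion protein neurofascin, had 11253 and 11664 in Oct4 and 914 and 926 in OSK (limma log2 change -3.64, SE 0.17, adjusted p = 1.79e-10). FHOD3, a formin that assembles actin, had 2346 and 2459.6 in Oct4 and 208 and 199 in OSK (limma log2 change -3.55, SE 0.13, adjusted p = 8.46e-12). ZDHHC2, a palmitoyl transferase (5577 and 6020.3 in Oct4 and 625 and 659 in OSK), and SV2A, a synaptic vesicle protein (2364 and 2370.3 in Oct4 and 300.3 and 294 in OSK), fell by log2 -3.17 (SE 0.11) and -2.99 (SE 0.10).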
